A study of Mus musculus with 12 samples.

Results

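Intermediate filament transcripts were followed in the gastrocnemius, a calf muscle, after its nerve supply had been cut. The genes were Krt8, Krt18, Krt19, Des, Vim, Nes, Synm, Sync and Plec, 9 of the 25094 genes listed, taken by their symbols from the tables of both strains. They were chosen by their RPKM values in right against left legs, known from earlier results of these data, so the right over left values of these 9 genes are a description and carry no p-value. Where one of the 9 is said to be called or not called between the legs, this only states on which side of the limma threshold (adjusted p under 0.05) it fell, and nothing rests on it. Poly(A) RNA came from male wild-type (WT) mice of 2 inbred strains, in 4 groups of 3 libraries: BALB/c right legs, BALB/c left legs, C57BL/6 right legs and C57BL/6 left legs. In the right leg the sciatic nerve had been cut and its ends turned back and sutured to muscle 2 weeks before the muscle was taken. Left legs are labelled as healthy; a sham operation is mentioned in the protocol, but it is not stated that it was done on them. No age is given, and nothing in the labels shows that 3 libraries of a group are 3 mice, so a p-value measures the spread between samples that may be technical repeats.

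Intermediate filaments are rope-like cytoskeletal polymers that give cells mechanical strength. Keratin filaments assemble from equal parts of a type I keratin, such as keratin 18 or keratin 19, and a type II keratin, such as keratin 8, and are best known from simple epithelia. In mature muscle fibres desmin is the main filament protein and ties the Z-discs of neighbouring myofibrils to each other and to the sarcolemma. Vimentin marks mesenchymal cells and immature muscle, nestin marks progenitor cells and regenerating fibres, and synemin and syncoilin join desmin filaments to the costamere, the protein lattice under the sarcolemma. Plectin is a large linker that anchors filaments at Z-discs, costameres and mitochondria.

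Values are RPKM, reads scaled by transcript length and by the reads of the library, so levels of different genes can be set side by side. The libraries held 14826900 to 17323400 reads in listed genes, and their values had been scaled to totals between 18132600 and 19282900. A change is the right-leg minus the left-leg mean of log2(RPKM + 0.5), given with its SE. On this scale the change of a gene with low values comes out too small. The median tested gene was itself 0.38 higher in right legs of BALB/c and 0.52 higher in right legs of C57BL/6, and a relative change has that median subtracted. Rescaling by median-of-ratios factors brought these medians to 0.02 in both strains. The 10 fibre markers, among them Ckm, Myh4 and Ttn, summed to 63087 to 92500 RPKM in BALB/c right legs, against 96021 to 123988 in left legs, and to 78492 to 84593 RPKM in C57BL/6 right legs, against 128478 to 137445 in left legs. Of these markers limma called 1 higher and 3 lower in BALB/c and 3 higher and 7 lower in C57BL/6, the same numbers as after rescaling. Of all tested genes, 42.5% were called higher and 7.67% lower in BALB/c, and 63.6% and 8.56% in C57BL/6. The fibre markers called higher were Mb in BALB/c (log2 change 2.29) and Mb, Myh2 and Myh1 in C57BL/6 (4.82, 3.77 and 2.91). Ckm, Myh4 and Ttn were called lower in both strains. In whole muscle, fewer cells of a type and less RNA per cell cannot be told apart.

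Krt8 and Krt18 were close to the limit of detection in left legs and far higher in right legs, in both strains. Among the genes followed, only Des exceeded Krt18 in right legs of either strain. Krt8 came next after Krt18 in C57BL/6 right legs, but lay below Vim in every BALB/c right leg. In BALB/c, Krt18 had 263, 638 and 466 RPKM in right legs, against 0.197, 0.396 and 0.116 RPKM in left legs. In C57BL/6, Krt18 had 715, 651 and 655 RPKM in right legs, against 0.493, 0.268 and 0.534 RPKM in left legs. Every right leg lay above every left leg. In BALB/c, Krt8 had 57.4, 118 and 50.4 RPKM in right legs, against 0, 0.154 and 0.0300 RPKM in left legs. In C57BL/6, Krt8 had 219, 167 and 168 RPKM in right legs, against 0.235, 0.0590 and 0.118 RPKM in left legs. The legs were again separate, and BALB/c right leg 2 had about as much Krt8 as the other 2 BALB/c right legs together.

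The log2 change of Krt18 was 9.20 ± 0.31 in BALB/c and 9.51 ± 0.12 in C57BL/6, and that of Krt8 was 6.98 ± 0.31 in BALB/c and 8.18 ± 0.14 in C57BL/6. Ranked by this change, Krt18 was number 2 among the 14819 genes tested in BALB/c and number 2 among the 14551 tested in C57BL/6, while Krt8 was number 8 in BALB/c and number 4 in C57BL/6. As rebuilt reads summed over 3 libraries, Krt18 had 35856 in BALB/c right legs, against 18 in left legs, and 53507 in C57BL/6 right legs, against 34 in left legs. The depth-corrected ratio for Krt18 was 1924 in BALB/c (exact 95% interval 1217 to 3247) and 1559 in C57BL/6 (1115 to 2251). Krt8 had 7620 reads in BALB/c right legs, against 6 in left legs, and 18913 reads in C57BL/6 right legs, against 14 in left legs. Its ratio was 1227 in BALB/c (563 to 3344) and 1338 in C57BL/6 (797 to 2448). These intervals cover counting error only. In BALB/c, Krt8 passed the filter of 0.1 RPKM on the mean only through its right legs, where it is high.

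**Figure D1:**
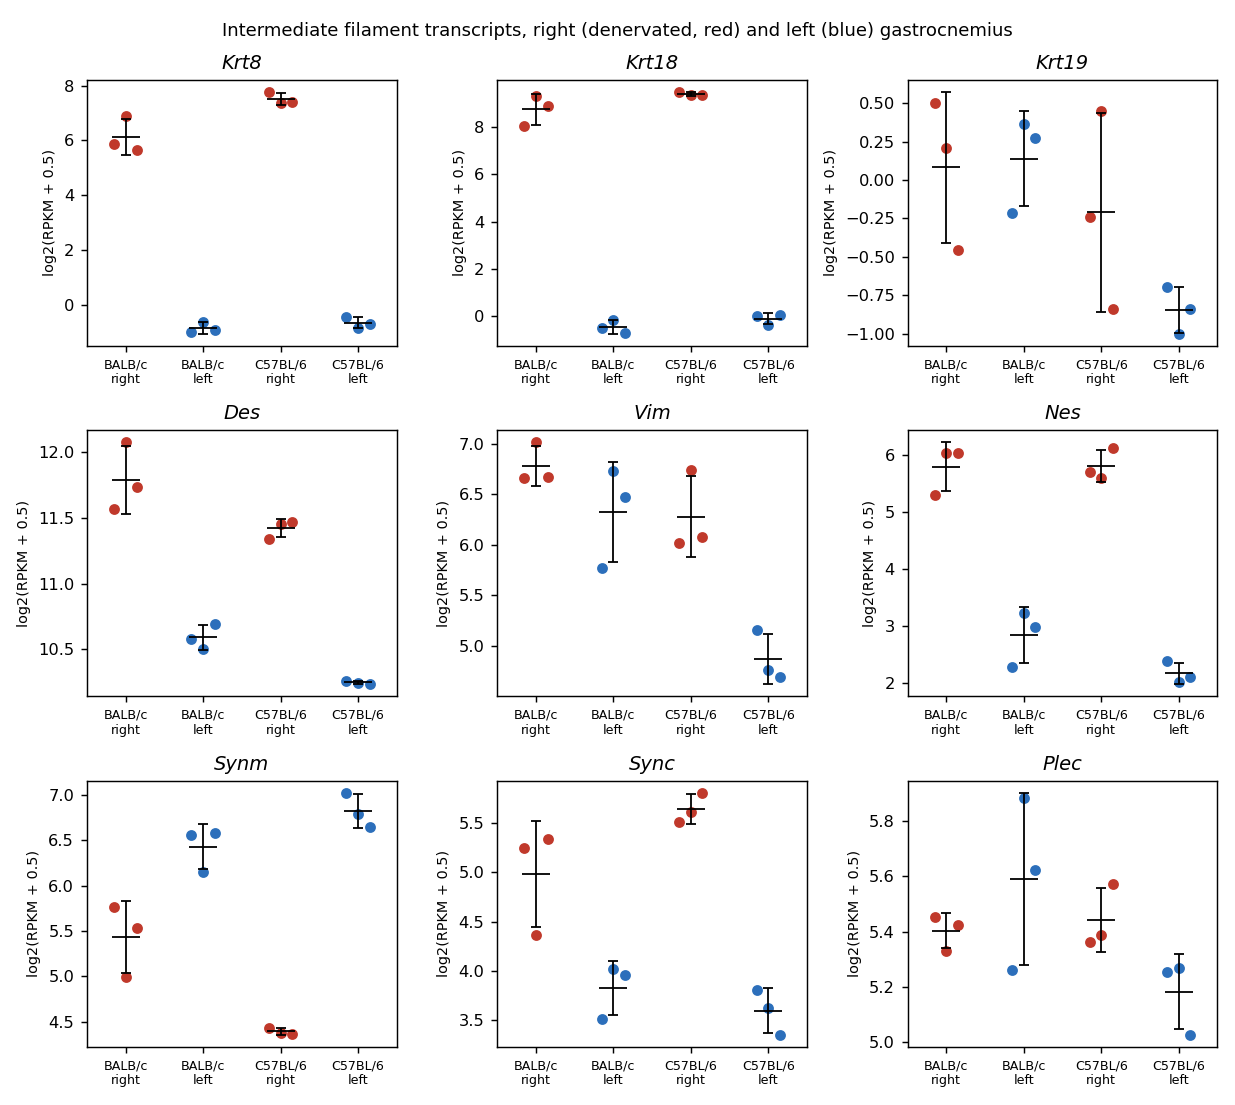
Level of each of the 9 transcripts in every library, as log2(RPKM + 0.5), with right legs in red and left legs in blue and 3 points per group. Krt8 and Krt18 separate the legs by the widest gap in both strains, Synm is lower in every right leg, and Krt19 overlaps between the legs.

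The type I keratin Krt19 stayed below 1 RPKM in every library. In BALB/c, Krt19 had 0.915, 0.657 and 0.228 RPKM in right legs, against 0.361, 0.788 and 0.709 RPKM in left legs. In C57BL/6, Krt19 had 0.345, 0.868 and 0.0580 RPKM in right legs, against 0.116, 0 and 0.0580 RPKM in left legs. The legs overlapped in both strains, with changes of -0.06 ± 0.27 in BALB/c and 0.64 ± 0.30 in C57BL/6. Its summed reads were 31 in BALB/c right legs and 31 in left legs, and 22 in C57BL/6 right legs, against 3 in left legs (ratio 7.26, exact 95% interval 2.18 to 37.9).

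Krt8 (NM_031170) spans 101827142 to 101834773 on the minus strand of chromosome 15 and Krt18 (NM_010664) spans 101858647 to 101862457 on its plus strand, in the mm9 positions that the tables list. The start sites of the pair lie 23874 bases apart, the genes point away from each other, and no other listed gene lies between them. A processed pseudogene of Krt8 is annotated in the mouse genome, and reads it shares with Krt8 could not be separated. The promoter windows of both genes are shown because these transcripts moved together, and that of Synm because it moved the other way. Each runs from 250 bases before to 50 bases after the start site in RefSeq, build GRCm38.p6, is written 5′ to 3′ on the gene's own strand, and has each match of the E-box CANNTG in capitals, the letters that myogenic factors are known to bind.
Krt8 promoter, chr15:102004293-102004592, minus strand: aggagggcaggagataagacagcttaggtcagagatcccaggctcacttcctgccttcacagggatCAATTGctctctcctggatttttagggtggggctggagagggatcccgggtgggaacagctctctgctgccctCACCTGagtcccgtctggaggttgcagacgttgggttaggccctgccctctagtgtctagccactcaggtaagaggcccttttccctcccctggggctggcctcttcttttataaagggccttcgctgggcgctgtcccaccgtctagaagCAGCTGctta
Krt18 promoter, chr15:102027966-102028265, plus strand: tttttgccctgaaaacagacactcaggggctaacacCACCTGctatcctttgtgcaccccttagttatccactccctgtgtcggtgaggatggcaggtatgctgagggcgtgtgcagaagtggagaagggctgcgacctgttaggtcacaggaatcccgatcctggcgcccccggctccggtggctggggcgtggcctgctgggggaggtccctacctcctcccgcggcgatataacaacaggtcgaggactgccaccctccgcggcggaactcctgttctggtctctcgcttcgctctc
Synm promoter, chr7:67759693-67759992, minus strand: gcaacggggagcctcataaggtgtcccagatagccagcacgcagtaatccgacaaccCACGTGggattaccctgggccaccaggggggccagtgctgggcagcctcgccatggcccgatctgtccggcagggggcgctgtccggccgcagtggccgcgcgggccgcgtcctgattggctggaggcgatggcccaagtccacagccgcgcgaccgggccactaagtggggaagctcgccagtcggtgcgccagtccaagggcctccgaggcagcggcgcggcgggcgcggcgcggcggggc

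A RefSeq promoter window was matched for 7 of the 9 genes. The E-box, whose letters CANNTG read the same on both strands, had 3 matches in the Krt8 window, whose first bases lie 184 and 111 bases before the start and at base 41 counted from the start as 1, and 1 match in the Krt18 window, 214 bases before it. The Synm window held 1 match, 193 bases before the start, the Des and Sync windows held 2 each, and the Vim and Nes windows held none. Unlike the others, the Des window ends in bases found in no annotated Des transcript, so its start site is less certain. Of all 32851 windows of this length, 72.3% held an E-box. The narrower CAGCTG, which overlaps the E-box by construction, occurred in the Krt8, Des and Sync windows and in 16.3% of all windows. TATAAA, searched on both strands, was found in the Vim window 32 bases before the start and in the Krt8 window at 2 overlapping places 3 bases and 1 base before the listed start, and in 13.6% of all windows. The GC box GGGCGG was found in the Des, Nes and Sync windows and in 35.7% of all windows. The AP-1 letters TGANTCA (7.81% of all windows), the RUNX letters TGTGGT (16.8%), the MEF2 motif (3.19%) and the CArG box (1.63%), each searched on both strands, had no match in the 7 windows.

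The pair stood apart from its neighbours on the chromosome. Within 500 kb lay 45 other listed genes, 19 of them keratins. None of these 19 keratins reached the filter in either strain. Their highest mean was 0.0700 RPKM in BALB/c right legs and 0.0617 in left legs, and 0.0160 RPKM in C57BL/6 right legs and 0.0337 in left legs. On the Krt8 side the next 3 genes are Krt78, Krt79 and Krt4, keratins of stratified epithelia and skin, and Krt79 had 0.0583 ± 0.0372 RPKM in BALB/c right legs, against 0.0617 ± 0.0664 in left legs (SD, n = 3). On the Krt18 side the next 3 genes rose in both strains by limma's test with Benjamini-Hochberg adjustment. The translation initiation factor Eif4b changed by 0.55 ± 0.15 in BALB/c (adjusted p = 0.0180) and 0.71 ± 0.11 in C57BL/6 (adjusted p = 0.000819). The focal adhesion gene Tns2 changed by 0.82 ± 0.27 in BALB/c (adjusted p = 0.0343) and 1.27 ± 0.15 in C57BL/6 (adjusted p = 0.000197), and Spryd3 by 1.42 ± 0.14 in BALB/c (adjusted p = 0.000172) and 1.41 ± 0.11 in C57BL/6 (adjusted p = 2.1e-05). After rescaling, Spryd3 was called in both strains (0.93 in BALB/c and 0.76 in C57BL/6) and Tns2 in C57BL/6 (0.57, against 0.31 in BALB/c, not called), while Eif4b was called in neither (0.03 in BALB/c and -0.00092 in C57BL/6). Over all tested genes of the window other than Krt8 and Krt18, these 3 included, changes ran from -0.49 to 1.71 in BALB/c and from -0.92 to 1.41 in C57BL/6.

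**Figure D2:**
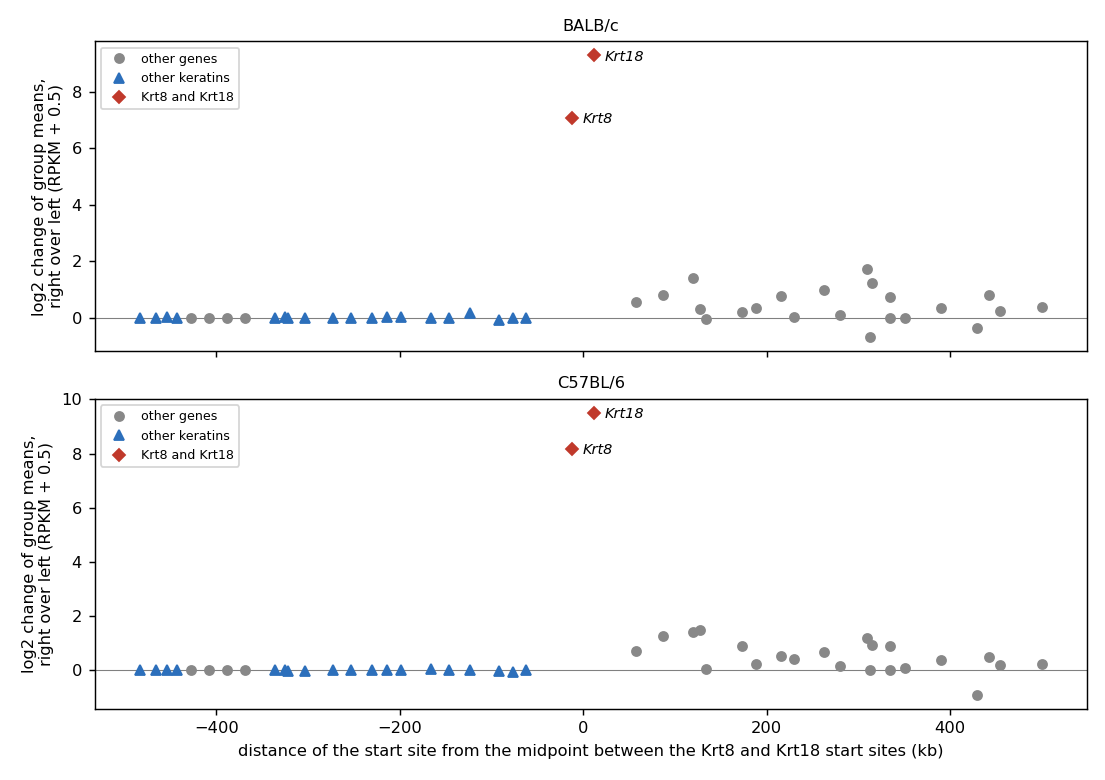
Log2 change of the group means, right over left, of every listed gene within 500 kb of the Krt8 and Krt18 pair, against its distance in kb from the middle of the pair, for each strain. Krt8 and Krt18 stand above 6 in both strains, and the other genes of the window, the keratins among them included, lie far below the pair.

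Desmin was the most abundant of the 9 transcripts in every library, and it was higher in right legs. In BALB/c, Des had 3033, 4318 and 3407 RPKM in right legs, against 1524, 1452 and 1652 RPKM in left legs. In C57BL/6, Des had 2598, 2806 and 2837 RPKM in right legs, against 1227, 1212 and 1206 RPKM in left legs. The legs did not overlap in either strain. The change of Des was 1.20 ± 0.24 in BALB/c (relative 0.83) and 1.18 ± 0.09 in C57BL/6 (relative 0.65). After median-of-ratios rescaling it was 0.68 in BALB/c, where it was no longer called, and 0.45 in C57BL/6. Des shares 370 bases of its span with Gm15179 on the opposite strand. As strand was not used in counting, reads of the overlap cannot be told apart, and Gm15179 fell, to 3.23 ± 3.66 RPKM in BALB/c right legs, against 15.01 ± 9.92 RPKM in left legs (SD, n = 3, limma's adjusted p = 0.0201), and to 4.69 ± 1.55 RPKM in C57BL/6 right legs, against 13.8 ± 0.331 RPKM in left legs (adjusted p = 0.000476).

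Vimentin was higher in right legs of C57BL/6, while its right and left legs overlapped in BALB/c. In BALB/c, Vim had 101, 129 and 101 RPKM in right legs, against 54.1, 105 and 88.2 RPKM in left legs. In C57BL/6, Vim had 64.3, 106 and 67.0 RPKM in right legs, against 35.2, 26.7 and 25.5 RPKM in left legs. The change in BALB/c was 0.46 ± 0.25 and was not called (-0.06 after rescaling), and that in C57BL/6 was 1.40 ± 0.21 (0.69 after rescaling), with all right legs above all left legs. The difference between the strains itself was -0.94 ± 0.35 and did not pass the test described further on. The summed level of 11 macrophage markers was 188 to 302 RPKM in BALB/c right legs, against 63.1 to 107 in left legs, and 92.2 to 184 RPKM in C57BL/6 right legs, against 9.78 to 13.3 in left legs. By limma, 9 of the 11 were called higher in BALB/c (7 after rescaling), where 42.5% of all tested genes were, and 11 of 11 in C57BL/6 (11 after rescaling), where 63.6% of all tested genes were. In C57BL/6, Adgre1, Fcgr1 and Itgam passed the filter only through their right legs, where they are high. Nothing is therefore read from the C57BL/6 count. The 9 markers of fibroblasts and fibro-adipogenic progenitors summed to 555 to 728 RPKM in BALB/c right legs, against 470 to 753 in left legs, and to 239 to 453 RPKM in C57BL/6 right legs, against 87.9 to 147 in left legs. Of these, 5 were called higher and 1 lower in BALB/c (none higher and 2 lower after rescaling), and 9 of 9 higher in C57BL/6 (5 after rescaling). The 10 endothelial markers summed to 91.5 to 131 RPKM in BALB/c right legs, against 109 to 151 in left legs, and to 65.9 to 84.4 RPKM in C57BL/6 right legs, against 68.9 to 84.6 in left legs, with 2 called lower in BALB/c and 3 in C57BL/6 (8 and 10 after rescaling). Of all tested genes, 7.67% were called lower in BALB/c and 8.56% in C57BL/6. After rescaling, 2818 of 14819 genes were called lower in BALB/c and 3840 of 14551 in C57BL/6. No marker of these 3 lists was at 0 in all libraries of a strain. Macrophages, fibroblasts and endothelial cells are rich in vimentin, and their part in its values was not tested.

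Nestin had the next largest rise after the keratins. In BALB/c, Nes had 38.9, 65.1 and 64.9 RPKM in right legs, against 4.37, 8.87 and 7.41 RPKM in left legs. In C57BL/6, Nes had 51.0, 47.6 and 68.7 RPKM in right legs, against 4.68, 3.54 and 3.79 RPKM in left legs. All right legs lay above all left legs, and the change was 2.96 ± 0.29 in BALB/c and 3.63 ± 0.16 in C57BL/6 (2.45 and 2.95 after rescaling). The 10 satellite cell markers summed to 115 to 161 RPKM in BALB/c right legs, against 40.5 to 54.1 in left legs, and to 105 to 139 RPKM in C57BL/6 right legs, against 37.5 to 38.2 in left legs. Of them, 6 were called higher in each strain (4 in each after rescaling, with 1 lower in BALB/c), beside 42.5% of all tested genes in BALB/c and 63.6% in C57BL/6, so the count in C57BL/6 is near that of all genes. None of the 10 was at 0 in all libraries of a strain. The 10 Schwann cell markers summed to 37.6 to 59.7 RPKM in BALB/c right legs, against 49.0 to 169 in left legs, and to 21.1 to 75.7 RPKM in C57BL/6 right legs, against 7.51 to 195 in left legs, and none was at 0 in all libraries of a strain. Of them, 3 were called higher and 3 lower in BALB/c (1 and 4 after rescaling), and 3 higher in C57BL/6 (2 after rescaling). Of all tested genes, 7.67% were called lower in BALB/c and 8.56% in C57BL/6. Cdh19, 1 of those called higher in C57BL/6, passed the filter there only through its right legs, so nothing is read from that count. Both cell types can express nestin, and their part in its values was not tested.

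Synemin, which bridges desmin filaments to the costamere, was the one gene of the 9 that was lower in every right leg of both strains. In BALB/c, Synm had 54.0, 31.3 and 45.9 RPKM in right legs, against 93.7, 70.3 and 95.4 RPKM in left legs. In C57BL/6, Synm had 21.1, 20.2 and 20.1 RPKM in right legs, against 130, 110 and 99.7 RPKM in left legs. The change was -0.999 ± 0.22 in BALB/c (relative -1.38) and -2.43 ± 0.10 in C57BL/6 (relative -2.95), and rescaling moved it further down, to -1.52 in BALB/c and -3.14 in C57BL/6. Synm was the most abundant of the 9 after Des in left legs of C57BL/6, and in right legs of C57BL/6 only Krt19 was lower.

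Syncoilin, a partner of desmin and of the dystrophin-associated protein alpha-dystrobrevin, went the other way. In BALB/c, Sync had 37.6, 20.1 and 40.1 RPKM in right legs, against 10.96, 15.7 and 15.02 RPKM in left legs. In C57BL/6, Sync had 45.1, 48.4 and 55.4 RPKM in right legs, against 13.5, 11.9 and 9.73 RPKM in left legs. The legs did not overlap, although BALB/c right leg 2 came near the left legs, and the change was 1.15 ± 0.27 in BALB/c and 2.04 ± 0.13 in C57BL/6 (0.64 and 1.34 after rescaling). Sync shares 1460 bases of its span with Rbbp4 on the opposite strand. Rbbp4, a histone-binding protein, also rose, to 43.5 ± 6.08 RPKM in BALB/c right legs, against 14.5 ± 1.44 RPKM in left legs, and to 47.2 ± 1.81 RPKM in C57BL/6 right legs, against 11.8 ± 0.846 RPKM in left legs (SD, n = 3, limma's adjusted p = 0.000129 and 1.6e-06). How many reads of each gene stem from the other cannot be told apart.

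Plectin stayed within a narrow range. In BALB/c, Plec had 43.3, 39.7 and 42.4 RPKM in right legs, against 37.9, 58.6 and 48.8 RPKM in left legs. In C57BL/6, Plec had 40.6, 41.3 and 47.1 RPKM in right legs, against 37.6, 38.0 and 32.1 RPKM in left legs. The change was -0.19 ± 0.17 in BALB/c, not called, and 0.26 ± 0.10 in C57BL/6, called higher, a direction that in C57BL/6 turned to -0.45 after median-of-ratios rescaling, where Plec was called lower in both strains (-0.71 in BALB/c). The call in C57BL/6 as deposited was also lost without any one of left legs 1, 2 and 3 (0.29, 0.30 and 0.18) and of right legs 2 and 3 (0.29 and 0.19), with no filter, with eBayes without a trend and with limma-voom (0.25).

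Of the 9 genes, 5 were called higher and 1 lower in BALB/c, where 50.2% of all tested genes were called, 42.5% higher and 7.67% lower. In C57BL/6, 7 were called higher and 1 lower, where 72.2% of all tested genes were called, 63.6% higher and 8.56% lower. Since the 9 genes were chosen with this contrast known, nothing is read from these counts. After median-of-ratios rescaling the calls over all genes split into 3225 higher and 2818 lower in BALB/c, against 6302 and 1136 as deposited, and into 4106 higher and 3840 lower in C57BL/6, against 9258 and 1246 as deposited. The median change of the 9 genes was 1.15 in BALB/c, against 0.38 over all tested genes, and 1.40 in C57BL/6, against 0.52.

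**Figure D3:**
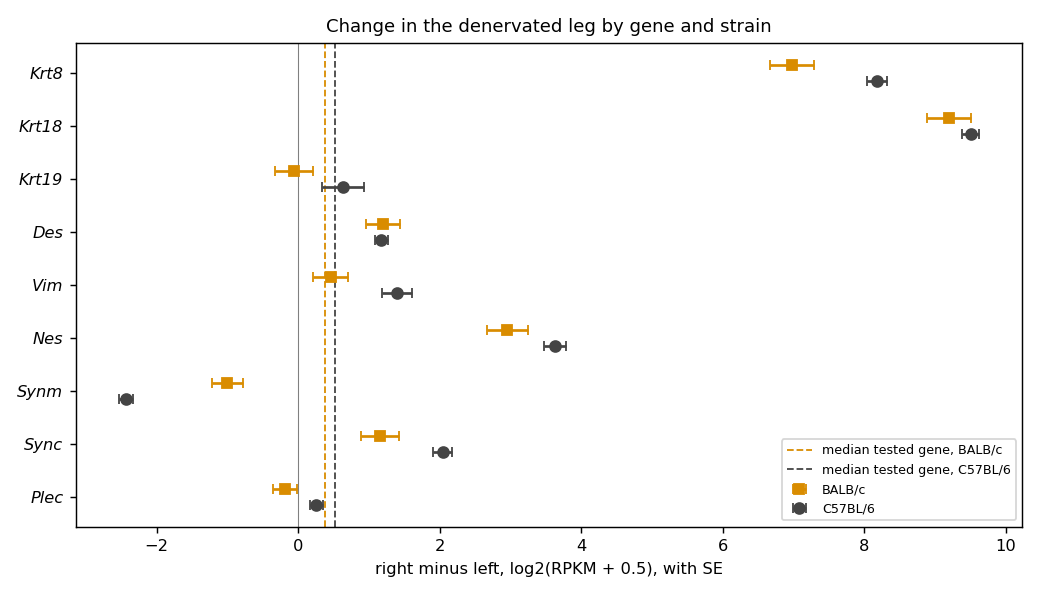
Change of each of the 9 transcripts, right minus left in log2(RPKM + 0.5), with its SE, by strain. Krt18 (9.20 in BALB/c and 9.51 in C57BL/6) and Krt8 (6.98 and 8.18) lie far to the right, Nes follows, and Synm lies left of 0 in both strains (-0.999 and -2.43).

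The order of levels changed between the legs. In BALB/c right legs, the order of mean RPKM from high to low was Des, Krt18, Vim, Krt8, Nes, Synm, Plec, Sync and Krt19, and from Vim to Sync each gene overlapped the next in its range over 3 libraries. In BALB/c left legs the order was Des, Synm, Vim, Plec, Sync, Nes, Krt19, Krt18 and Krt8, with overlap between Synm and Vim, Vim and Plec, Krt19 and Krt18, and Krt18 and Krt8. In C57BL/6 right legs the order was Des, Krt18, Krt8, Vim, Nes, Sync, Plec, Synm and Krt19, and from Vim to Plec each gene overlapped the next. In C57BL/6 left legs the order was Des, Synm, Plec, Vim, Sync, Nes, Krt18, Krt8 and Krt19, with overlap between Plec and Vim and between Krt8 and Krt19.

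Without the linker Plec, the other 8 genes code for filament proteins, and their summed RPKM shows how the make-up differed. Desmin made up 81.2% to 84.6% of the sum in BALB/c right legs, against 87.8% to 90.3% in left legs, and 70.0% to 73.3% in C57BL/6 right legs, against 87.0% to 89.6% in left legs. Krt18 made up 7.33% to 11.998% in BALB/c right legs, against 0.00624% to 0.0239% in left legs, and 16.9% to 19.3% in C57BL/6 right legs, against 0.0196% to 0.0397% in left legs. Krt8 added 1.21% to 2.22% in BALB/c right legs and 4.34% to 5.89% in C57BL/6 right legs. Synm made up 0.587% to 1.51% in BALB/c right legs, against 4.25% to 5.55% in left legs, and 0.520% to 0.568% in C57BL/6 right legs, against 7.41% to 9.18% in left legs. The 8-gene sum itself was 3585 to 5320 RPKM in BALB/c right legs, against 1654 to 1859 in left legs, and 3714 to 3871 RPKM in C57BL/6 right legs, against 1345 to 1411 in left legs.

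**Figure D4:**
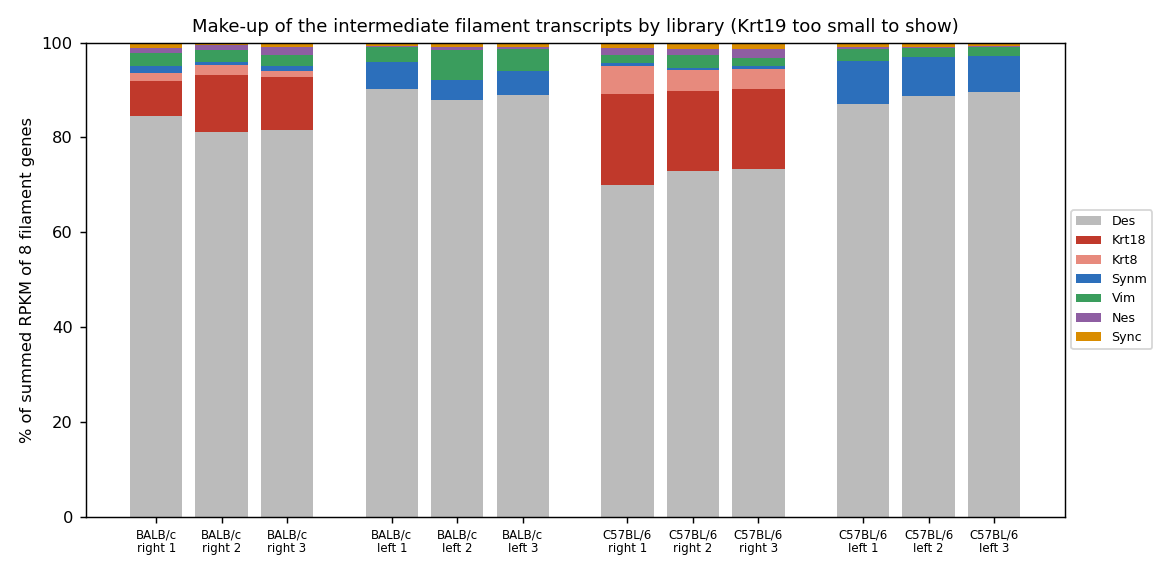
Make-up of the summed RPKM of 8 filament transcripts in each library, in percent, with right legs left of left legs in each strain. Desmin holds the largest part throughout, Krt18 and Krt8 appear in right legs, and the Synm part of left legs (4.25% to 9.18%) shrinks in right legs.

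Keratin was set against desmin and vimentin as the RPKM of Krt8 plus Krt18 divided by that of Des or of Vim in the same library, a ratio that no scaling of the library changes. Relative to Des, keratin reached 0.106, 0.175 and 0.151 in BALB/c right legs, against 0.000129, 0.000379 and 8.8e-05 in left legs, and 0.359, 0.291 and 0.290 in C57BL/6 right legs, against 0.000593, 0.000270 and 0.000541 in left legs. Keratin transcripts thus stayed below those of desmin in every library. Relative to Vim, keratin reached 3.18, 5.88 and 5.08 in BALB/c right legs, against 0.00364, 0.00521 and 0.00166 in left legs, and 14.5, 7.70 and 12.3 in C57BL/6 right legs, against 0.0207, 0.0123 and 0.0256 in left legs. Keratin transcripts exceeded those of vimentin in all 6 right legs and in none of the 6 left legs.

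Within the keratin pair, Krt18 exceeded Krt8 in every right leg, by 4.58, 5.41 and 9.23 times in BALB/c and 3.27, 3.90 and 3.90 times in C57BL/6. The strains did not overlap in right legs in this ratio, in keratin relative to Des, in keratin relative to Vim or in Sync relative to Des. For 13 such ratios compared between the strains within a leg, an exact two-sided permutation test of 3 against 3 libraries cannot go below p = 0.1, and these 4 ratios each gave p = 0.1 (0.186 after Benjamini-Hochberg adjustment over the 13). In left legs, keratin relative to Vim, Vim relative to Des and Synm relative to Des did not overlap between the strains either, with the same p. Keratin in left legs rests on few reads, 6 of Krt8 and 18 of Krt18 in BALB/c and 14 and 34 in C57BL/6, summed over 3 libraries. Vim also differed there, with means of 82.6 RPKM in BALB/c left legs and 29.1 in C57BL/6 left legs. The permutation test cannot pass the threshold with 3 libraries a group, so it does not decide whether the ratios differed.

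**Figure D5:**
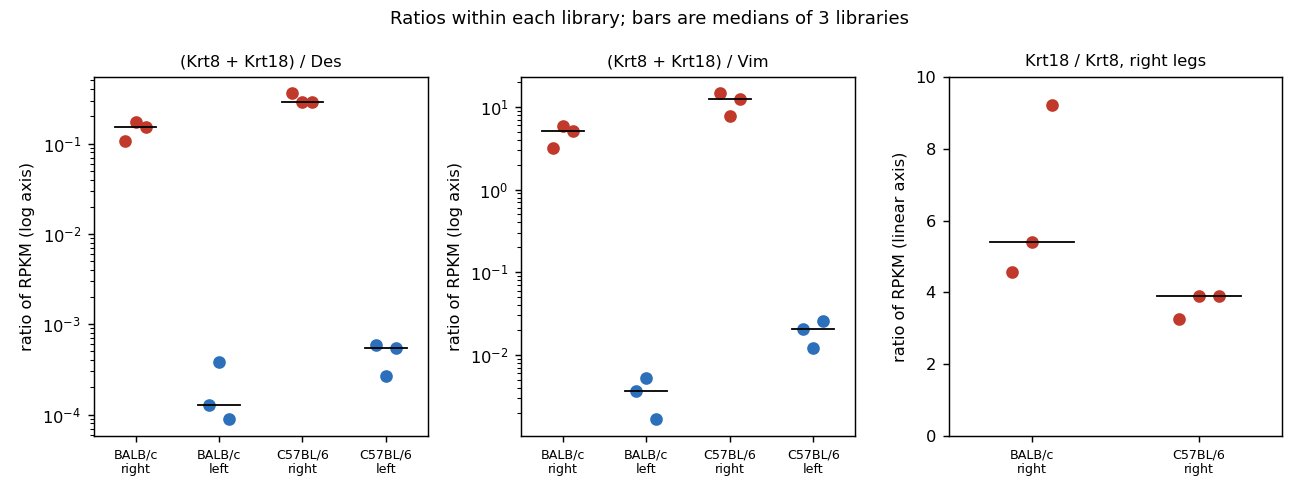
Ratios within each library, with lines at the medians of 3 libraries, right legs in red and left legs in blue, on log axes for keratin over desmin or vimentin and a linear axis for Krt18 over Krt8. Keratin relative to desmin lies between 0.106 and 0.359 in right legs and below 0.001 in left legs, and the ratio of Krt18 to Krt8 in right legs is higher in BALB/c (4.58 to 9.23) than in C57BL/6 (3.27 to 3.90).

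Whether the response to denervation differed between the strains was tested in 1 limma fit over all 12 libraries by subtracting the change in C57BL/6 from that in BALB/c, with Benjamini-Hochberg adjustment over the 14165 genes tested in both tables. Of all these genes, 6.09% were called, 1.76% with the larger value in BALB/c and 4.33% with the larger value in C57BL/6, and rescaling turned this split from 249 and 613 genes into 525 and 495. Synm passed, with a difference of 1.43 ± 0.26 (95% interval 0.86 to 2.0002, adjusted p = 0.0118): its level in right legs was lower in both strains, and by less in BALB/c, in which all 3 right legs had more Synm than any right leg of C57BL/6, and all 3 left legs had less than any left leg of C57BL/6, in tables that were normalized separately. Both legs thus entered the difference. It was called under each of the 20 alternatives run, with adjusted p between 0.00181 and 0.0453.

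For the keratins the difference was -1.20 ± 0.37 for Krt8 (95% interval -2.01 to -0.38, limma's adjusted p = 0.0783) and -0.31 ± 0.37 for Krt18 (-1.11 to 0.49, adjusted p = 0.631). The Krt8 value depended on how its few left-leg reads were treated: limma-voom on rebuilt reads gave 0.01 (adjusted p = 0.997), and the read ratios above have overlapping intervals. The Krt8 difference was called without BALB/c right leg 2 (-1.57, adjusted p = 0.00355) and with the replicate block described at the end. Over all alternatives its adjusted p ran from 0.00355 to 0.997. As Krt8 passed the filter in BALB/c only through its right legs, nothing is concluded from its tests. For Vim the difference was -0.94 ± 0.35 (-1.71 to -0.17, adjusted p = 0.129), called without BALB/c left leg 1 (-1.22, adjusted p = 0.0308, range over alternatives 0.0308 to 0.289). For Sync it was -0.89 ± 0.33 (-1.61 to -0.17, adjusted p = 0.128) and for Nes -0.68 ± 0.36 (-1.47 to 0.11, adjusted p = 0.273). For Plec it was -0.45 ± 0.20 (-0.88 to -0.01, adjusted p = 0.197), called without BALB/c left leg 1 (-0.61, adjusted p = 0.0432, range 0.0432 to 0.384). For Krt19 it was -0.69 ± 0.44 (-1.65 to 0.26, adjusted p = 0.352), and for Des 0.03 ± 0.22 (-0.45 to 0.50, adjusted p = 0.952). Krt19 passed the filter in C57BL/6 only through its right legs, so nothing is concluded from its test either.

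Other keratins were mostly undetected. Of 23 other type I keratins, 1 passed the filter in BALB/c and 2 in C57BL/6, and limma called 0 of them, with 0 at an unadjusted p under 0.05 and 0 by limma-voom. Their summed level was 0.869 to 1.44 RPKM in BALB/c right legs, against 0.734 to 0.970 in left legs, and 0.692 to 1.52 RPKM in C57BL/6 right legs, against 0.727 to 0.890 in left legs. Of 24 other type II keratins, 2 passed the filter in each strain, Krt7 and Krt80, and Krt80 rose in both, also after rescaling. Krt80, an epithelial keratin, had 9.11 ± 2.94 RPKM in BALB/c right legs, against 0.983 ± 0.525 in left legs (log2 change 2.72 ± 0.31, limma's adjusted p = 0.000271), and 5.10 ± 0.868 RPKM in C57BL/6 right legs, against 0.226 ± 0.107 in left legs (2.95 ± 0.16, adjusted p = 5.7e-06). Krt7, a keratin of simple epithelia, had 0.842 ± 0.309 RPKM in BALB/c right legs, against 0.0347 ± 0.000577 in left legs, and 0.444 ± 0.220 RPKM in C57BL/6 right legs, against 0.0447 ± 0.0508 in left legs. Krt7 passed the filter only through its right legs, where it is high, so no test of it is given.

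Most markers of epithelium were at or near 0. The 17 epithelial and epidermal markers summed to 2.16 to 2.73 RPKM in BALB/c right legs, against 1.24 to 1.60 in left legs, and to 1.19 to 2.37 RPKM in C57BL/6 right legs, against 0.882 to 1.02 in left legs. Krt5, Krt14 and Krt1 were at 0 in all 6 BALB/c libraries, and Epcam, Cldn7, Esrp1, Esrp2, Krt14 and Krt15 were at 0 in all 6 C57BL/6 libraries. Krt10 had the highest mean in each group, 0.941 RPKM in BALB/c right legs, against 0.700 in left legs. In C57BL/6 it averaged 0.924 RPKM in right legs, against 0.629 in left legs. Elf3 was also above 0 in every library, averaging 0.302 and 0.320 RPKM in BALB/c right and left legs, and 0.145 and 0.120 in C57BL/6. Of the 17, 4 passed the filter in BALB/c and 3 in C57BL/6, and limma called 1 in each strain, Krt7, with the limit given above. The 4 mesothelial markers measured summed to 0.179 to 0.633 RPKM in BALB/c right legs, against 0.0450 to 0.186 in left legs, and to 0.0260 to 0.338 RPKM in C57BL/6 right legs, against 0 to 0.0520 in left legs. Of them, 1 passed the filter, Msln in BALB/c, with 0.426 ± 0.224 RPKM in right legs, against 0.0710 ± 0.101 in left legs. It passed only through the right legs, where it is high, so no test of it is given.

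Among 13 other intermediate filament proteins, 8 passed the filter in each strain. In BALB/c 3 rose (3 rose and 1 fell after rescaling), with a list median of 0.15 against 0.38 over all tested genes, and in C57BL/6 5 rose and 1 fell (4 and 1 after rescaling), with a median of 0.68 against 0.52. Of all tested genes, 42.5% rose and 7.67% fell in BALB/c, and 63.6% rose and 8.56% fell in C57BL/6. The counts of the list are near these shares. Lmna, which codes for the nuclear lamins A and C, had 288 ± 35.0 RPKM in BALB/c right legs, against 38.4 ± 6.14 in left legs (SD, n = 3, log2 change 2.90 ± 0.17, limma's adjusted p = 2.5e-05), and 240 ± 19.9 RPKM in C57BL/6 right legs, against 24.2 ± 1.74 in left legs (3.28 ± 0.09, adjusted p = 4.8e-07). Iffo1, a nuclear filament protein that binds lamin A, rose by 1.99 ± 0.14 in BALB/c (adjusted p = 4.9e-05) and by 2.66 ± 0.10 in C57BL/6 (adjusted p = 1.7e-06). Lmnb1, which codes for lamin B1, changed by -0.39 ± 0.20 in BALB/c (adjusted p = 0.145, called lower after rescaling). It fell to 1.03 ± 0.133 RPKM in C57BL/6 right legs, against 2.12 ± 0.109 in left legs (-0.78 ± 0.10, adjusted p = 0.000303).

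Of 12 plakins and filament linkers, the proteins that fasten filaments to junctions and to other cytoskeletal polymers, 7 of 10 tested rose in BALB/c and 6 of 8 in C57BL/6, beside 42.5% and 63.6% of all tested genes in these strains. Eppk1 and Pkp3 in BALB/c and Dsp in C57BL/6, all counted as risen, passed the filter only through their right legs, where they are high. Nothing is therefore read from these counts. After rescaling the counts were 6 higher and 2 lower in BALB/c and 5 higher and 2 lower in C57BL/6. The list median was 0.74 in BALB/c and 0.93 in C57BL/6, against 0.38 and 0.52 over all tested genes. Jup, the junction protein plakoglobin, had 96.0 ± 22.6 RPKM in BALB/c right legs, against 18.6 ± 2.97 in left legs (2.32 ± 0.21, limma's adjusted p = 0.000111), and 66.0 ± 3.33 RPKM in C57BL/6 right legs, against 15.01 ± 0.855 in left legs (2.10 ± 0.07, adjusted p = 1.1e-06). Macf1, which links actin and microtubules, rose by 1.23 ± 0.19 in BALB/c (adjusted p = 0.00115) and by 2.10 ± 0.09 in C57BL/6 (adjusted p = 2.1e-06). Fam83h, known from organising keratin filaments in ameloblasts and cell lines, rose by 1.25 ± 0.23 in BALB/c (adjusted p = 0.00261) and by 1.26 ± 0.12 in C57BL/6 (adjusted p = 5.8e-05).

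Of 15 proteins of the costamere, the Z-disc and the chaperones around desmin filaments, 14 were tested in each strain. In BALB/c 7 rose and 1 fell (5 and 6 after rescaling), with a median of 0.57, against 0.38 over all tested genes, and in C57BL/6 11 rose and 1 fell (7 and 5 after rescaling), with a median of 1.08, against 0.52. The share of all tested genes that rose was 42.5% in BALB/c, near that of the list, and 63.6% in C57BL/6. Cryab, the small heat shock protein alpha-B-crystallin that binds desmin, had 1745 ± 572 RPKM in BALB/c right legs, against 547 ± 170 in left legs (1.68 ± 0.32, limma's adjusted p = 0.00303), and 2520 ± 735 RPKM in C57BL/6 right legs, against 423 ± 75.6 in left legs (2.55 ± 0.23, adjusted p = 5.1e-05). Hspb1, another small heat shock protein, rose by 1.70 ± 0.36 in BALB/c (adjusted p = 0.00510) and by 2.41 ± 0.18 in C57BL/6 (adjusted p = 2.0e-05). Sgcd, delta-sarcoglycan of the dystrophin complex, changed by -0.79 ± 0.17 in BALB/c (adjusted p = 0.00528) and by -0.81 ± 0.11 in C57BL/6 (adjusted p = 0.000420).

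The genes whose pattern was most like that of the keratins were found by the mean absolute difference in log2(RPKM + 0.5), each gene set to its left-leg mean, over all 12 libraries and 10210 genes that averaged 1 RPKM or more in both tables. For Krt8 the nearest were Chrng (0.18), Chrnd (0.35), Rrad (0.41), Aif1l (0.52) and S100a8 (0.54). Chrng and Chrnd code for the gamma and delta subunits of the muscle acetylcholine receptor, and Rrad for a small GTPase. Chrng averaged 102 RPKM in BALB/c right legs, against 0.0577 in left legs, and 154 RPKM in C57BL/6 right legs, against 0.0650 in left legs. For Krt18 the nearest were Aldh3a1 (0.34), an aldehyde dehydrogenase, Rrad (0.73), Chrng (0.84), Igfn1 (0.88) and Chrnd (1.09). Aldh3a1 averaged 273 RPKM in BALB/c right legs, against 0.231 in left legs, and 418 RPKM in C57BL/6 right legs, against 0.157 in left legs. Krt8 and Krt18 differed from each other by 0.95 on this measure, so each had genes outside the keratins that lay closer to it. The measure compresses the change of genes with low left-leg values. By limma-voom on rebuilt reads the changes were closer, 10.4 for Krt8 and 10.8 for Krt18 in BALB/c and 10.4 and 10.6 in C57BL/6. Chrng and Aldh3a1 averaged 1 RPKM or more only through their right legs, where they are high. Nothing is therefore read from the order of distances.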

How the data were processed

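Poly(A) RNA of the gastrocnemius was sequenced in 12 libraries, 3 per strain and leg, grouped by the labels. The authors deposited RPKM values in 1 table per strain. Per the file headers, exon reads were counted by HOMER without regard to strand on its mm9 annotation, with 1 transcript kept per gene, and the columns are headed FPKM. Tools named in the submitters' processing notes, with no version or role, are HISAT2, HOMER and DESeq2, and the builds named there are GRCm38 and mm10. Which of these builds served for alignment is not stated in those notes.

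Whole reads within a tolerance of 0.1 read were rebuilt in each library for 99.8% to 99.9% of values. RPKM values were tested on log2(RPKM + 0.5), two-sided, by the functions lmFit and eBayes (trend on) of limma 3.58.1 under R 4.3.3, for genes averaging 0.1 RPKM or more in the 6 libraries of their table, with p-values adjusted by Benjamini and Hochberg across every tested gene and calls at an adjusted p under 0.05. The tables were normalized separately, so right and left legs were compared with each strain fitted alone. The strain difference compares the changes within each table in 1 fit over all 12 libraries, and levels were set across strains only as values or ratios. All 9 genes passed the filter and have the same transcript in both tables. The lower limit of detection is 3 reads. The scripts were tested on simulated data.

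The members and the lists were chosen with earlier results of these data known. Named genes are the 9 members, up to 2 called genes per list, direction and strain with the largest change, the 3 listed genes on each side of the Krt8 and Krt18 pair, and the 5 genes most like each keratin. Gm15179 and Rbbp4 were added for their overlap. Others were added to define or describe a marker list, or because they passed the filter only through their right legs. The alternatives were a pseudocount of 0.1 or 1, a filter of 1 RPKM or none, median-of-ratios rescaling, a replicate block, eBayes without a trend, limma-voom on rebuilt reads, and leaving out each library.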

Additional observations from a re-analysis of the deposited data

Results flagged for a closer look

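The change of Synm, synemin, differed between the strains by a test of the difference itself, which put the change in BALB/c above that in C57BL/6 by 1.43 ± 0.26 on the log2 scale (limma, adjusted p = 0.0118). Synm averaged 43.7 ± 11.5 RPKM in BALB/c right legs, against 86.5 ± 14.0 in left legs, and 20.5 ± 0.524 RPKM in C57BL/6 right legs, against 113 ± 15.1 in left legs (SD, n = 3 libraries each). The level was lower in 3 of 3 right legs in each strain. Synm was chosen with its right over left values known, and the difference is formed from them, which limits its p-value. The spread of the right legs was wider in BALB/c, from 31.3 to 54.0 RPKM, than in C57BL/6, from 20.1 to 21.1 RPKM.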

How the results depend on the processing

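Median-of-ratios rescaling gave 3225 genes higher and 2818 lower in BALB/c, 4106 and 3840 in C57BL/6, and 525 higher in the strain difference. Of the 9 genes, 2 were then called lower in each strain, Synm and Plec, and Plec in C57BL/6 reversed to -0.45. With no filter, 3 of the 9 were called higher in BALB/c, Des and Sync being lost, and 317 genes were lower in the strain difference. By limma-voom 151 genes were higher there, and Krt8 (0.0114), Krt18 (0.18) and Des (-0.0630) reversed, as did Krt18 with a pseudocount of 0.1 (0.0521). None of the reversed differences of Krt8, Krt18 and Des was called.

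Leaving out 1 library moved the strain difference between 81 (without C57BL/6 right leg 3) and 505 genes higher (without BALB/c right leg 2), between 226 (without C57BL/6 right leg 3) and 1028 lower (without BALB/c left leg 1), and between 0 and 2 of the 9 genes lower. The count higher was 152 without BALB/c left leg 2, 163 without right leg 3, 120, 121 and 104 without C57BL/6 left legs 1, 2 and 3, and 104 without right leg 2. The count lower was 375 and 385 without BALB/c left legs 2 and 3, 277, 282 and 233 without C57BL/6 left legs 1, 2 and 3, and 235 without right leg 2. Krt18 ran from -0.60 to 0.0413 (reversed at 0.0413 without BALB/c right leg 1), and Des from -0.11 to 0.14 (-0.0124 without C57BL/6 right leg 1, -0.0153 without BALB/c left leg 2, -0.11 without BALB/c right leg 2). The cause was not tested.

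The labels do not say whether equal replicate numbers mark 1 mouse. In BALB/c the column codes skip the same number in both legs, but what these numbers stand for is not stated. Pairing was not shown: deviations of same-numbered libraries correlated at 0.03, 0.05 and 0.20 in BALB/c and 0.12, 0.06 and 0.03 in C57BL/6. These were all positive but not all over 0.1, and BALB/c right leg 1 correlated best with left leg 2. With a replicate block the counts were 5782 higher and 1058 lower in BALB/c, 9144 and 1217 in C57BL/6 (6 of the 9 genes higher, Plec lost), and 234 and 520 in the strain difference, where 1 of the 9 genes, Krt8, was called lower (-1.20, limma's adjusted p = 0.0320). The limit that the filter sets on tests of Krt8, given above, holds here too.

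With Krt18 alone the median ratio to Des in C57BL/6 right legs was 0.232. With Krt19 added, the medians in BALB/c left legs were 0.000518 for Des and 0.0103 for Vim. Left-leg values of Krt8 rest on 6 reads in BALB/c and 14 in C57BL/6, so their depth limits its change.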
